A study of Mus musculus with 13 samples.

Results

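Dystrophin-deficient muscle was set against wild-type muscle in RNA from the mouse tibialis anterior, a fast muscle at the front of the lower leg. The comparison took the 4 mdx libraries and the 5 WT libraries, 9 of the 13 libraries of the series, by the genotype given for each. The mdx libraries come from mice with a nonsense mutation in the X-linked dystrophin gene Dmd, a mouse model of Duchenne muscular dystrophy, and carry no transgene. The WT libraries come from wild-type mice. The other 4 libraries, from mdx mice with a sarcospan transgene, only lent their spread between replicates to the fit. The sources used here give no age, sex or strain background. They do not say that the libraries come from separate animals, so the spread behind each p-value may be technical. The identifiers of the WT and of the mdx libraries form separate runs of numbers. If these mark cohorts, or if the strains differ in background, neither can be told apart from the genotype. The study's question in this contrast is what loss of dystrophin does to gene expression in the muscle.

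Dystrophin is a long rod under the muscle cell membrane that ties the actin cytoskeleton to a complex of membrane proteins and through it to laminin in the basement membrane. Fibres without it tear under contraction, take in calcium and die. Macrophages then clear the debris, fibro-adipogenic progenitors lay down matrix, and satellite cells divide and fuse into new fibres, which pass through an embryonic programme of sarcomere genes. In mdx mice these cycles of injury and repair begin soon after weaning and continue at a lower rate in adults.

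Levels are the authors' normalized CPM, reads scaled by an effective library size, and are not divided by gene length. A log2 fold is the difference of mean log2(normalized CPM + 0.5), mdx over WT, with its standard error (SE), from limma's moderated test. The words "rose" and "fell" are used of genes with a Benjamini-Hochberg adjusted p under 0.05 over all 13831 genes tested. The 0.5 added before taking logs makes the folds of genes near or under 1 CPM too small. The 9 libraries held 53.26 to 68.44 M reads, of which 41.74 to 53.87 M fell on listed genes. In normalized CPM, 3 reads were worth 0.0568 to 0.0818. Log2 levels correlated at 0.986 to 0.993 within mdx, 0.980 to 0.995 within WT and 0.945 to 0.978 between the genotypes. The first principal component, with 60.1% of the variance, separated them. The levels of a typical gene varied less among mdx libraries (median SD 0.151 on the log2 scale) than among WT libraries (0.197). Of the WT libraries, replicate 1 was rich in slow-fibre transcripts (Myh7 at 2578 normalized CPM, against 12.4 to 75.1 in the other WT libraries). Replicate 2 had 19.2% mitochondrial reads and a low Dmd level. Replicate 3 held transcripts of regenerating fibres. List counts of 3 genes or fewer moved by at most 3 genes when any 1 library was left out. Larger ones that moved by more than 1.5 times are given with that library named. Of the myofibre markers Acta1, Ckm, Myh4, Myh1, Actn3 and Pvalb, actin Acta1 and parvalbumin Pvalb were abundant in both groups and did not pass the threshold. Mean levels in normalized CPM were 22222 ± 3505 in mdx and 26562 ± 3110.4 in WT for Acta1 (SD, n = 4 and 5). For Pvalb they were 7904 ± 1385 in mdx and 9841 ± 2587 in WT. Myh1 did not pass either, while Ckm, Myh4 and Actn3 fell, as given below.

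Dystrophin loss went with a change in 4782 genes, 34.6% of those tested: 2559 (18.5%) rose and 2223 (16.1%) fell in mdx. The rises were larger than the falls, with a median log2 fold of 0.65 among risen genes and -0.43 among fallen genes. Of the genes called, 672 were at least 2-fold higher in mdx and 159 at least 2-fold lower. The numbers past 4-fold were 95 and 22. In 3690 genes (26.7%) the mdx and WT libraries did not overlap, with all 4 mdx libraries above the 5 WT libraries in 2072 and below them in 1618. The split into rises and falls rests on the authors' scaling factors, which were 1.006 to 1.068 in mdx and 0.831 to 0.932 in WT. In plain CPM of the listed genes 5153 rose (37.3%) and 736 fell (5.32%), so that 87.5% of the calls were higher in mdx in place of 53.5%, and the median of all genes was 0.20 in place of -0.01. Plain CPM counts are therefore given below for many lists, and falls given without them need not hold in plain CPM. Of the 2 falls in the sarcolemma repair and caveolae list and the 2 among integrins, for example, none was called there.

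**Figure D1:**
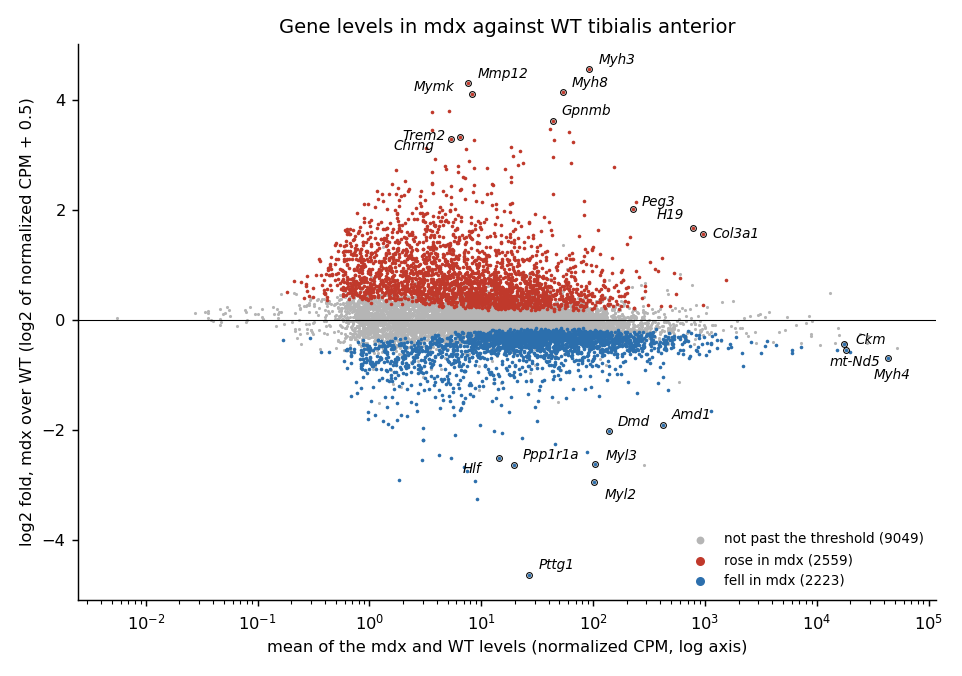
Log2 fold of each gene tested, mdx over WT, against the mean of its mdx and WT levels (normalized CPM, log axis), with genes that rose in mdx in red, genes that fell in blue and named genes circled. Many moderately expressed genes rose by 2 log2 units or more, up to Myh3 at 4.55, whereas few fell as far, led by Pttg1 at -4.64, and the abundant transcripts Ckm, Myh4 and mt-Nd5 fell by less than 1.

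Among genes with at least 10 normalized CPM in the higher group and no overlap, the 12 largest rises were Myh3, Mmp12, Myh8, Mymk, Gm28438, Gpnmb, Lgals3, Mpeg1, Trem2, Chrng, Mt2 and Timp1. They are embryonic and perinatal myosins, a fusion protein and the foetal acetylcholine receptor subunit of muscle on the one hand and macrophage, protease, protease-inhibitor and metal-binding genes on the other. Gm28438 is annotated as a pseudogene, so its reads may belong to a parent gene. The 12 largest falls held Pttg1 (-4.64 ± 0.13 SE), Ppp1r1a, an inhibitor of protein phosphatase 1 (-2.64 ± 0.18), the clock-output factor Hlf (-2.52 ± 0.16), the protein phosphatase Dusp26 (-2.27 ± 0.26) and the ketone body enzyme Bdh1 (-2.14 ± 0.43), as well as Dmd itself. Ppp1r1a had 4.65, 5.24, 5.06 and 4.51 normalized CPM in the mdx libraries, against 49.9, 37.3, 33.8, 27.4 and 21.9 in the WT libraries, without overlap. Measured by the change in normalized CPM rather than in fold, and so weighted towards long and abundant transcripts, the 8 largest gains among called genes without overlap were Col3a1, H19, Fhl1, Eef1a1, Tfrc, Ctsb, Lyz2 and Peg3. Under the same limit the 8 largest losses were Ckm, mt-Nd2, mt-Nd5, Pygm, Actn3, Mybpc2, Myh2 and Mb, the genes of muscle creatine kinase, of mitochondrial respiration, of glycogen breakdown, of the fast sarcomere and of myoglobin. Myh4 lost more in normalized CPM than any of these, but its libraries overlapped, and Myh1 gained more than any of the first 8 without passing the threshold. Neither mt-Nd2 nor mt-Nd5 was called in plain CPM (adjusted p = 0.103 and 0.139) or when the transgenic libraries were left out of the fit. With the replicate number as a block as well, mt-Nd5 had an adjusted p of 0.0876. The call of mt-Nd2 was also lost without WT replicate 4 or mdx replicate 3 or 4.

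Dmd (chromosome X, 82948870 to 85206141, mm10) had 48.7, 49.4, 58.3 and 53.97 normalized CPM in the mdx libraries, against 244, 124, 246, 244 and 255 in the WT libraries. Every mdx library lay below every WT library, and WT replicate 2 lay between the mdx libraries and the other WT libraries. Its log2 fold of -2.03 ± 0.17 (SE) had a limma adjusted p of 1.69e-06. An exact two-sided permutation test over all arrangements of the 9 libraries gave p = 0.0159, the smallest it allows. Of the 10 listed genes nearest to Dmd on its chromosome, 5 on each side, 6 rose and none fell. Of all genes 18.5% rose and 16.1% fell, and of those on chromosome X 25.3% rose and 7.85% fell. Prrg1, Tmem47, Pola1 and Pdk3 were among the 6 that rose. Pdk3, which encodes a kinase that inhibits pyruvate dehydrogenase, had the largest of these folds (1.12 ± 0.13 SE, adjusted p = 1.65e-05), at 3.67, 3.34, 3.55 and 3.52 normalized CPM in mdx, against 1.88, 0.954, 1.499, 1.22 and 1.29 in WT. Prrg1 was not called without mdx replicate 2. Neither Prrg1 nor Pola1 was called without WT replicates 1, 2 and 3.

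Utrn, the gene of the dystrophin relative utrophin, had 56.8, 55.3, 78.3 and 89.5 normalized CPM in the mdx libraries, against 50.4, 43.1, 68.7, 75.5 and 96.98 in the WT libraries. Sspn, which encodes sarcospan, ranged over 109 to 119 in mdx and 100.8 to 136 in WT. The groups overlapped for both genes, with log2 folds of 0.09 ± 0.22 and -0.05 ± 0.09 (SE, limma adjusted p = 0.779 and 0.723) and exact permutation p-values of 0.730 and 0.619. When the fit held WT and mdx only and took the replicate number as a block, Utrn passed the threshold in mdx, with a log2 fold of 0.24 and an adjusted p of 0.0208. WT replicate 5, the highest in Utrn, has no mdx library of its number and drops out of that contrast. Without WT replicate 5 and without the block, the log2 fold was also 0.24 (adjusted p = 0.394). Among the 21 genes of the dystrophin complex and its neighbours, Sntb1, Sync, Bgn, Dtna and Sntb2 rose and Synm fell. Of these, the syntrophins Sntb1 and Sntb2 and the dystrobrevin Dtna bind dystrophin inside the membrane, and the matrix proteoglycan biglycan (Bgn) binds the complex outside it. Syncoilin (Sync) and synemin (Synm) are intermediate filament proteins that link it to the sarcomere. The last pair moved apart: Sync had 59.5, 54.6, 66.1 and 58.9 normalized CPM in mdx, against 39.4, 26.1, 43.03, 44.5 and 40.1 in WT (log2 fold 0.64 ± 0.13 SE, adjusted p = 0.0013). Synm had 695, 553, 791 and 634 in mdx, against 1189, 764, 979, 1031 and 969 in WT (-0.56 ± 0.13, adjusted p = 0.00343). The list counts 5 rises (23.8%, near the 18.5% of all genes) and 1 fall (4.76%, against 16.1%), with 8 and 1 under the replicate block and 10 and 1 in plain CPM. Sntb2 was not called without WT replicates 1, 2 and 3.

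Large changes in the sarcomere lay within the myosin heavy chain locus, where genes for developmental and adult fibre types lie side by side on chromosome 11. Of 9 listed genes between Myh3 and Myh13, 2 rose and 6 fell in mdx. In chromosomal order these were embryonic Myh3 (risen), the noncoding 2310065F04Rik, Myh2 of fast oxidative fibres and 9430073C21Rik (all fallen), Myh1 of intermediate fast fibres (not called), the noncoding Myhas and Myh4 of the fastest fibres (fallen), perinatal Myh8 (risen) and extraocular Myh13 (fallen). Myh3 (67078300 to 67102291) had 70.9, 124, 239 and 264 normalized CPM in the mdx libraries, against 5.97, 3.27, 39.2, 3.05 and 3.03 in the WT libraries. WT replicate 3 stood above the other WT libraries. Myh8 had 44.8, 125.9, 105 and 134 in mdx, against 4.08, 3.82, 10.8, 3.498 and 4.72 in WT, with a log2 fold of 4.13 ± 0.33 (SE, adjusted p = 1.07e-06). Between them 2310065F04Rik (67112461 to 67120080) had 35.5, 28.3, 24.5 and 23.1 in mdx, against 132, 160.4, 178, 144 and 134 in WT (-2.42 ± 0.13, adjusted p = 3.11e-08), without overlap. Myh2 had 377, 415, 555 and 566 in mdx, against 4334, 898, 1057, 1160.3 and 1583 in WT (-1.67 ± 0.38, adjusted p = 0.0037). Myh4 ranged over 28262 to 40978 in mdx and 39996 to 72858 in WT and fell by less (-0.69 ± 0.20, adjusted p = 0.0165). It was not called with the replicate block in WT and mdx alone (adjusted p = 0.0793), nor without mdx replicate 1 or 2, where the adjusted p was 0.0511 and 0.0507. Myh1 ranged over 12256 to 18579.7 in mdx and 4924 to 15841 in WT (0.48 ± 0.29, adjusted p = 0.232). The strand setting of the counting is not known here, so the levels of Myhas and of 9430073C21Rik, which lie against or within coding neighbours, are uncertain.

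The slow sarcomere list took in 4 falls and 2 rises among 14 genes, and WT replicate 1 shaped it. The regulatory light chain Myl2 of slow fibres and heart had 11.1, 3.21, 7.99 and 5.57 normalized CPM in the mdx libraries, against 856, 66.4, 26.04, 12.98 and 20.6 in the WT libraries (log2 fold -2.96 ± 0.94 SE, adjusted p = 0.0243). It was not called without mdx replicate 2 or 4 or without WT replicates 1, 2 and 3. Its partner Myl3 had 14.1, 14.9, 19.2 and 10.5 in mdx, against 753, 49.98, 69.8, 53.4 and 44.3 in WT (-2.62 ± 0.65, adjusted p = 0.00638). Without WT replicate 1, the list had 4 rises, and it had none with the replicate block. The falls were 2 without mdx replicate 2 or 4. Of 14 fast sarcomere genes 5 fell and none rose, 3 fell in plain CPM and 2 without mdx replicate 2. These 5 were Myh4, the light chain kinase Mylk2 (-0.65 ± 0.10), the Z-disc actinin Actn3 (-0.54 ± 0.13), the fast troponin C Tnnc2 (-0.50 ± 0.18) and the fast myosin-binding protein Mybpc2 (-0.46 ± 0.14). Tnnc2 was not called in plain CPM (adjusted p = 0.173), when the transgenic libraries were left out of the fit, or without any 1 of WT replicates 1, 2 and 4 and mdx replicates 2, 3 and 4. Mybpc2 was not called in plain CPM (adjusted p = 0.137) or without mdx replicate 2.

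**Figure D2:**
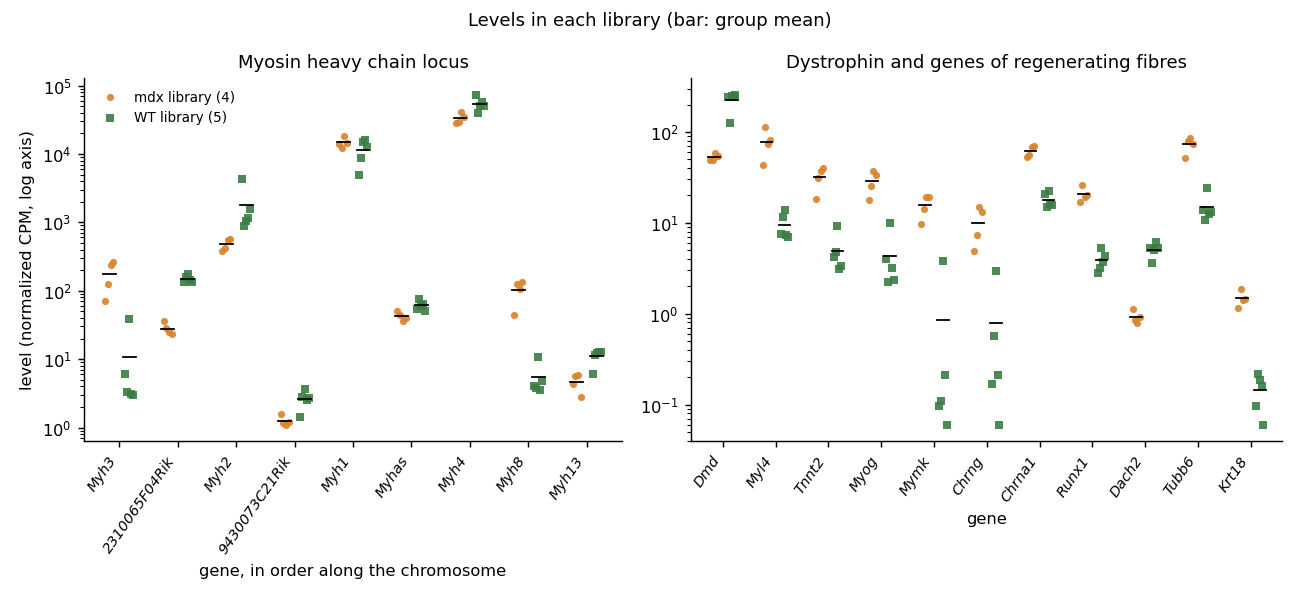
Normalized CPM (log axis) of each library, mdx left and WT right of each gene name, with bars for group means. Left, the 9 genes of the myosin heavy chain locus in chromosomal order, where Myh3 and Myh8 were higher in mdx and 2310065F04Rik, Myh2 and Myh13 were lower without overlap; right, dystrophin and genes of regenerating fibres, where WT replicate 3 is the high WT point of Mymk, Chrng and Myog.

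Other genes of new fibres moved with the developmental myosins. Of 6 embryonic and perinatal sarcomere genes 5 rose, with a list median of 2.78 against -0.01 over all genes, as did 8 of 13 myogenic regulator and satellite cell genes and 4 of 8 fusion genes. Myl4, the embryonic essential light chain, had 43.2, 113, 73.5 and 81.8 normalized CPM in the mdx libraries, against 7.49, 11.7, 13.8, 7.26 and 6.99 in the WT libraries. Tnnt2, a troponin T of heart and embryonic muscle, ranged over 18.2 to 40.3 in mdx and 3.13 to 9.13 in WT (log2 fold 2.60 ± 0.26 SE, adjusted p = 6.9e-06). Myogenin (Myog), the transcription factor of muscle differentiation, ranged over 17.98 to 36.8 in mdx and 2.21 to 9.94 in WT (2.73 ± 0.32, adjusted p = 2.62e-05). The satellite cell factors changed far less: Pax7 was at 5.27 ± 0.655 in mdx and 3.35 ± 0.693 in WT (0.60 ± 0.16, adjusted p = 0.0114), Myf5 at 2.84 ± 0.349 in mdx and 1.56 ± 0.263 in WT (0.70 ± 0.11) and Myod1 at 31.4 ± 4.37 in mdx and 20.49 ± 6.72 in WT (0.67 ± 0.23, adjusted p = 0.0333; SD, n = 4 and 5). Myod1 was not called by edgeR, nor without WT replicate 2 or mdx replicate 2, 3 or 4. The membrane proteins that fuse myoblasts rose. Mymk, encoding myomaker, had 9.69, 14.04, 19.4 and 19.3 in mdx, against 0.0966, 0.109, 3.81, 0.212 and 0.0597 in WT (log2 fold 4.09 ± 0.48 SE, adjusted p = 2.48e-05). Mymx, encoding myomixer, had 1.55, 2.63, 4.71 and 4.28 in mdx, against 0.0242, 0.0273, 1.42, 0 and 0.0199 in WT (2.40 ± 0.37, adjusted p = 0.000224). In both genes WT replicate 3 was the only WT library above 1 normalized CPM, and it lay below every mdx library. DESeq2 on recovered reads did not call Mymx.

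The neuromuscular junction genes included the acetylcholine receptor, a pentamer whose foetal gamma subunit is replaced by epsilon in adult innervated fibres. Of 20 junction and denervation response genes 10 rose and 1 fell. The foetal subunit Chrng had 4.87, 7.37, 14.8 and 13.1 normalized CPM in the mdx libraries, against 0.169, 0.573, 2.92, 0.212 and 0.0597 in the WT libraries (log2 fold 3.28 ± 0.45 SE, limma adjusted p = 7.55e-05). All mdx libraries lay above WT. The shared subunits Chrna1 (1.77 ± 0.13), Chrnb1 (1.06 ± 0.10) and Chrnd (0.94 ± 0.17) rose too. The adult Chrne ranged over 17.1 to 21.96 in mdx and 15.6 to 26.1 in WT (0.06 ± 0.12, adjusted p = 0.734). Runx1, a transcription factor induced in denervated muscle, ranged over 17.1 to 26.3 in mdx and 2.78 to 5.31 in WT (2.30 ± 0.15, adjusted p = 2.16e-07). The neural cell adhesion molecule Ncam1 rose as well, at 17.2 to 40.6 in mdx and 6.76 to 11.6 in WT. Dach2, a transcriptional cofactor that represses myogenin, was the 1 member that fell, at 1.11, 0.847, 0.788 and 0.91 in mdx, against 5.31, 3.57, 5.05, 6.15 and 5.28 in WT (-1.97 ± 0.16, adjusted p = 1.11e-06). The junctional kinase Musk, at 11.4 to 19.9 in mdx and 5.64 to 34.8 in WT, did not pass (0.29 ± 0.36, adjusted p = 0.568).

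The promoters of Chrng and Chrna1 are shown because these subunits rose most among the receptor genes and because myogenin binds E-boxes, short motifs of the form CANNTG. The RefSeq sequences (GRCm38.p6) cover the 250 bases before each gene start. Capitals mark CAGCTG, which reads the same on both strands. Each holds it at 2 places:
Chrng (chr1:87205561-87205810, plus strand): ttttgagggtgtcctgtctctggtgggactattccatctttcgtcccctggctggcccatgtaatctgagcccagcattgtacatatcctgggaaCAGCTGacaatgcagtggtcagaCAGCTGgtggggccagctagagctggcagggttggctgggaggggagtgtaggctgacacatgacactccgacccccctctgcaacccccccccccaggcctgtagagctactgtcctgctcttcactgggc
Chrna1 (chr2:73580339-73580588, minus strand): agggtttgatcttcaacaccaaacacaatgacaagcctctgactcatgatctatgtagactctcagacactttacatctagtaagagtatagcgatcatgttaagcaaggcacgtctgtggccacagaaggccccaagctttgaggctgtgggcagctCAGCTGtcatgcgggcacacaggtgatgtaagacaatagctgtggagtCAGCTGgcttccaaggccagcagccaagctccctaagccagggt
Among 32851 windows of this length at gene starts 13% hold the motif and 1.26% hold it at least 2 times. Of the 14 junction genes with a window 5 hold it, namely Chrna1, Chrne, Chrng, Etv5 and Musk. The motif is thus also in the window of Chrne, whose level did not pass the test. A match is a description of the letters and does not show that a factor binds there.

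Fibre membrane and cytoskeleton genes rose in several families. Of 9 annexins, calcium-dependent proteins that seal membrane wounds, 6 rose and none fell. The summed annexin level was 708 to 779.9 in mdx and 486 to 552 in WT libraries. Anxa4 had 38.5, 50.4, 39.5 and 43.4 normalized CPM in the mdx libraries, against 15.5, 16.6, 12.97, 13.8 and 16.3 in the WT libraries (log2 fold 1.48 ± 0.10 SE, adjusted p = 2.39e-07). Anxa2 rose by 1.16 ± 0.12 and Anxa1 by 0.91 ± 0.12. Anxa6 (0.20 ± 0.07, adjusted p = 0.0411) was not called by edgeR, with the replicate block, or on leaving out WT replicate 3, WT replicate 5 or any 1 of the mdx libraries. In the sarcolemma repair and caveolae list 11 of 23 rose and 2 fell, among them dysferlin (Dysf, 0.36 ± 0.07), the giant scaffold proteins Ahnak (0.46 ± 0.09) and Ahnak2 (1.49 ± 0.14) and the protease calpain 2 (Capn2, 0.41 ± 0.06). Of 14 tubulins 8 rose and 2 fell. Tubb6, which is high in regenerating fibres, had 51.5, 80.00, 85.8 and 73.9 in mdx, against 13.7, 10.8, 24.3, 12.5 and 13.2 in WT (2.28 ± 0.19, adjusted p = 1.72e-06). Of 12 intermediate filament and lamin genes 7 rose and 1 fell. Keratin Krt18, an epithelial filament gene, ranged over 1.16 to 1.87 in mdx and 0.0597 to 0.218 in WT (1.61 ± 0.17, adjusted p = 7.9e-06). Nestin (Nes), a filament of immature fibres and junctions, rose by 0.89 ± 0.15, and vimentin (Vim), found in mesenchymal and white blood cells, by 0.88 ± 0.12.

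Calcium handling genes split. Orai1, the plasma membrane pore of store-operated calcium entry, had 71.1, 63.9, 66.1 and 58.7 normalized CPM in the mdx libraries, against 36.3, 33.9, 30.1, 30.4 and 26.9 in the WT libraries (log2 fold 1.03 ± 0.08 SE, limma adjusted p = 1.34e-06), without overlap. Its sensor Stim1 did not pass (-0.18 ± 0.09, adjusted p = 0.146). Itpr1, the inositol trisphosphate receptor, fell (-0.60 ± 0.08, adjusted p = 5.07e-05), as did the couplers of the calcium release unit Stac3 (-0.44 ± 0.08) and Jph1 (-0.47 ± 0.08). The calcium pump Atp2a1 ranged over 21766 to 32364 in mdx and 28521 to 33589.6 in WT (-0.30 ± 0.16, adjusted p = 0.16). Of 22 genes in the list 2 (9.09%, against 18.5% of all genes) rose and 6 (27.3%, against 16.1%) fell. In plain CPM 6 rose and 2 fell, and Jph1 was not called there. Without mdx replicate 4 the falls were 3.

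Macrophage genes rose throughout the general list. Of 19 general macrophage and monocyte genes 19 rose. Their summed level was 585 to 1088 in mdx and 94.3 to 307 in WT libraries, without overlap. In bulk RNA more cells of a type and more RNA per cell cannot be told apart. Mpeg1, a pore-forming protein of phagocytes, had 71.97, 92.1, 117 and 159.8 normalized CPM in the mdx libraries, against 4.01, 7.25, 20.4, 10.8 and 11.2 in the WT libraries (log2 fold 3.42 ± 0.34 SE, adjusted p = 6.51e-06). Lyz2, lysozyme, had 275, 388, 435 and 458 in mdx, against 40.3, 100.53, 127, 89.2 and 103 in WT (2.14 ± 0.26, adjusted p = 2.97e-05). The damage-associated genes, a set that lipid- and debris-laden macrophages switch on, rose in 18 of 20 cases. Mmp12 had 21.5, 13.2, 7.93 and 17.4 in mdx, against 0.0242, 0.382, 0.473, 0.185 and 0.239 in WT (4.30 ± 0.27, adjusted p = 1.33e-07). Gpnmb (3.61 ± 0.31), Lgals3 (3.47 ± 0.21), Trem2 (3.33 ± 0.19), the lysosomal proton pump subunit Atp6v0d2 (3.12 ± 0.18) and osteopontin (Spp1, 3.07 ± 0.33) also rose by 3 or more log2 units. The 1 member that fell was Lpl, the lipoprotein lipase that muscle and fat cells also express (-1.28 ± 0.18). With Lpl in it, the summed level of the list overlapped, at 1028 to 1444 in mdx and 868 to 1228 in WT libraries.

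Most genes of resident macrophages did not pass the threshold. Of 16 such genes 3 (18.8%, against 18.5% of all genes) rose and 1 fell, with a median log2 fold of -0.15. Cd163, a haemoglobin scavenger receptor, ranged over 7.64 to 30.4 in mdx and 10.3 to 39.3 in WT (-0.48 ± 0.42, adjusted p = 0.409). Lyve1 ranged over 4.56 to 14.5 in mdx and 7.54 to 17.2 in WT (-0.37 ± 0.31, adjusted p = 0.391) and Timd4 ranged over 0.895 to 1.78 in mdx and 0.918 to 1.83 in WT (-0.09 ± 0.20, adjusted p = 0.762). The groups overlapped in all 3 genes. Vsig4, a complement receptor, rose, at 0.415, 0.646, 0.876 and 1.40 in mdx, against 0.121, 0.0818, 0.158, 0.132 and 0.219 in WT (1.01 ± 0.19, adjusted p = 0.00106), a level of under 2 normalized CPM. The other called members were Pf4 (0.67 ± 0.20) and Selenop (0.52 ± 0.15), which rose, and Cbr2 (-0.37 ± 0.13), which fell. Pf4 and Selenop were not called without mdx replicate 4, and Cbr2 was not called in plain CPM, by edgeR, or without any 1 of WT replicates 1 and 2 and the mdx libraries. The count of rises was 6 with the replicate block, 6 in plain CPM and without WT replicate 5, 5 without mdx replicate 1 and 1 without mdx replicate 4. Of 27 neutrophil, mast, T, B and NK cell genes 8 were listed and could be tested, 3 rose and 1 fell, and the other 19 were not analysed here. Csf3r, the receptor for granulocyte colony-stimulating factor, had 4.10, 3.83, 3.94 and 4.13 in mdx, against 0.773, 1.36, 1.39, 0.742 and 1.31 in WT (1.502 ± 0.15, adjusted p = 6.38e-06). Cd4 and Ccl5 rose at levels under 4 normalized CPM. The antibody heavy chain gene Ighm fell, at 24.8, 31.6, 21.9 and 32.3 in mdx, against 83.4, 49.8, 71.7, 53.6 and 42.2 in WT (-1.08 ± 0.18, adjusted p = 0.000311).

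The receptors and effectors of innate immunity rose with the macrophage genes. Of 21 toll-like receptor and inflammasome genes 19 rose, led by Tlr13, a sensor of bacterial ribosomal RNA (2.73 ± 0.31 SE, adjusted p = 1.86e-05). Of 20 complement genes 12 rose and none fell. Complement rises took in the initiating chains C1qa (1.24 ± 0.25), C1qb (1.54 ± 0.26) and C1qc (1.23 ± 0.27), the anaphylatoxin receptor C3ar1 (2.44 ± 0.30). Protectors of host cells rose as well, with Cd55 at 156, 142, 123 and 145 normalized CPM in mdx, against 82.9, 62.7, 65.7, 69.5 and 75.7 in WT (0.98 ± 0.10, adjusted p = 1.03e-05), and Cd59a (1.24 ± 0.15). Of 27 chemokine genes and receptors 16 rose and 1 fell, among them the fractalkine receptor Cx3cr1 (2.47 ± 0.27) and the monocyte attractant Ccl8 (2.42 ± 0.31). Of 46 interleukin and TNF family genes 21 rose and 1 fell. They included decoy receptors for the death ligand TRAIL. Tnfrsf23 was at 17.7, 15.7, 13.7 and 12.5 in mdx, against 5.55, 3.49, 3.55, 4.37 and 3.05 in WT (1.79 ± 0.15, adjusted p = 1.59e-06), and Tnfrsf22 (1.34 ± 0.13) and the interleukin 1 antagonist Il1rn (1.55 ± 0.18) rose too. TRAIL itself, Tnfsf10, was the 1 member that fell, at 7.86, 8.18, 7.20 and 9.68 in mdx, against 10.6, 13.1, 10.8, 12.6 and 11.8 in WT (-0.50 ± 0.10, adjusted p = 0.00192; not called in plain CPM). Of 23 antigen presentation genes 13 rose, including the class II activator Ciita (1.77 ± 0.30) and class II chains H2-Aa (1.23 ± 0.29), H2-Ab1 (1.10 ± 0.27) and H2-Eb1 (1.17 ± 0.28). Interferon-stimulated genes rose in 9 of 28 cases (32.1%, against 18.5% of all genes) with a median of 0.27, and in 17 cases in plain CPM. They were led by Mx1 at 1.60 to 1.76 in mdx and 0.291 to 0.763 in WT. Of 31 cathepsins and lysosomal hydrolases 22 rose and 2 fell. Ctss had 85.6, 109, 122 and 158 in mdx, against 5.75, 11.2, 20.1, 12.5 and 14.4 in WT (3.23 ± 0.26, adjusted p = 1.28e-06), and Lgmn (1.52 ± 0.10) and Ctsb (0.84 ± 0.08) rose too. Of 20 proton pump subunits 6 (30%, against 18.5% of all genes) rose and 2 (10%, against 16.1%) fell. In plain CPM 10 of them rose. Atp6v0d2 apart, the largest rise was Atp6v1a at 0.56 ± 0.08.

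**Figure D3:**
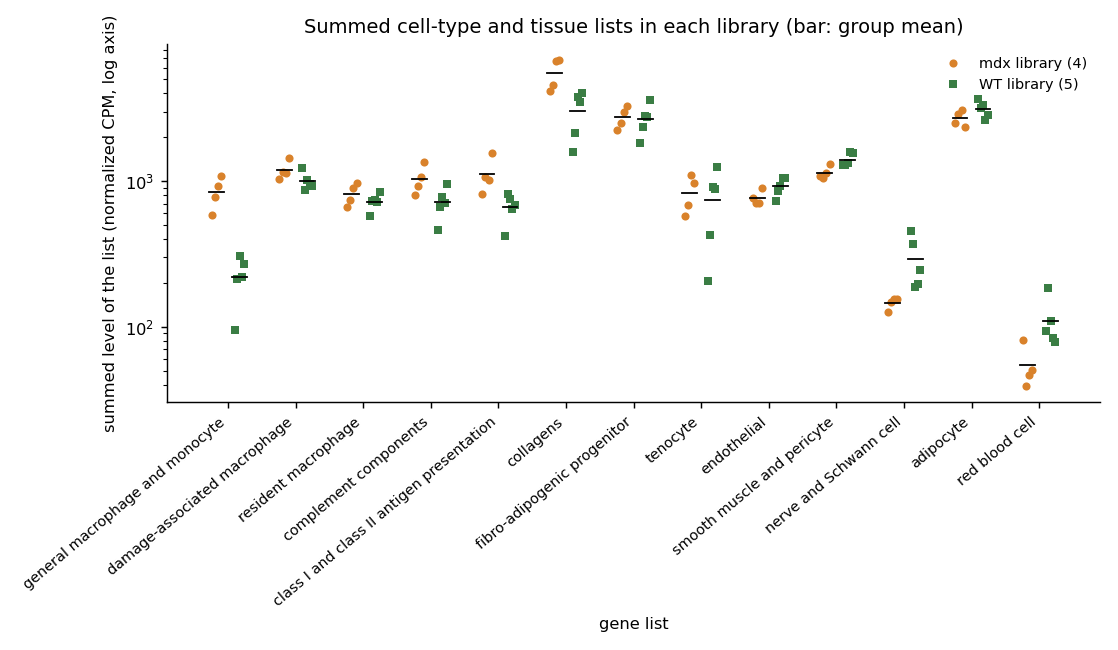
Summed normalized CPM (log axis) of 13 gene lists in each library, mdx left and WT right of each list name, with bars for group means. The general macrophage and monocyte sum of every mdx library lay above every WT library and the nerve and Schwann cell sum of every mdx library lay below, while the resident macrophage, progenitor, tenocyte, endothelial and adipocyte sums overlapped.

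More collagen genes rose than fell. Of 38 collagens 16 rose and 3 fell (23 and 5 with the replicate block), against 18.5% and 16.1% of all genes. Col3a1, the thin fibril-forming collagen of scar and loose tissue, had 1029, 1289, 1614 and 1810.4 normalized CPM in the mdx libraries, against 284, 365, 634, 623 and 602 in the WT libraries (log2 fold 1.56 ± 0.25 SE, adjusted p = 0.000305). Col5a3 had 126.2, 117, 156 and 153 in mdx, against 45.2, 64.9, 61.7, 56.2 and 55.7 in WT (1.27 ± 0.11, adjusted p = 2.69e-06). The basement membrane chains Col4a1 (0.92 ± 0.21), Col4a2 (0.77 ± 0.19) and Col15a1 (0.99 ± 0.21) rose. Col1a1, the main collagen of tendon and scar, ranged over 531 to 966 in mdx and 135 to 700.4 in WT (0.83 ± 0.40, adjusted p = 0.124) and passed with the replicate block (adjusted p = 0.00595) but not in plain CPM (adjusted p = 0.0549). The same held for Col1a2 (0.63 ± 0.43, adjusted p = 0.00845 with the block and 0.134 in plain CPM). Their lowest WT levels were in WT replicates 1 and 2. Tenocyte genes, which share these collagens, had summed levels of 574 to 1098 in mdx and 207 to 1252 in WT libraries. Their part in this spread was not tested. Col28a1, a collagen of Schwann cells, fell, at 0.502, 0.535, 0.591 and 0.966 in mdx, against 2.70, 2.07, 1.92, 2.86 and 3.15 in WT (-1.40 ± 0.15, adjusted p = 1.09e-05). The others that fell were the cartilage collagens Col9a1 (-1.46 ± 0.21, adjusted p = 0.000144) and Col11a2 (-0.72 ± 0.24). Col11a2 was not called in plain CPM (adjusted p = 0.137), by edgeR, when the transgenic libraries were left out of the fit, or without any 1 of WT replicates 2, 3 and 5 and mdx replicates 1, 2 and 4. Col4a2 was not called without WT replicates 1, 2 and 3. Lamc3, a laminin gamma chain, was the member of the laminin list that fell most, at 0.218 to 0.416 in mdx and 1.12 to 3.05 in WT (-1.85 ± 0.21, adjusted p = 1.78e-05).

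Proteases and their inhibitors rose together. Of 13 matrix metalloproteinases 6 rose and 1 fell, of 33 ADAM and ADAMTS genes 15 rose and 3 fell, and of 18 Timp and serpin genes 8 rose and 1 fell. Mmp3 (3.11 ± 0.29 SE) and Mmp19 (1.53 ± 0.19) rose with Mmp12, and so did Mmp14, the membrane-bound activator of Mmp2 (1.49 ± 0.24). Mmp9, a gelatinase, went the other way, at 0.917, 0.624, 1.03 and 1.65 normalized CPM in mdx, against 1.67, 2.92, 3.02, 3.55 and 5.46 in WT (-1.26 ± 0.30, adjusted p = 0.00525). Timp1, an inhibitor of metalloproteinases, had 14.1, 29.9, 10.8 and 10.01 in mdx, against 1.01, 1.28, 1.24, 0.768 and 1.15 in WT (3.26 ± 0.24, adjusted p = 6.22e-07), highest in mdx replicate 2. Serpinb1a, an inhibitor of neutrophil elastase, ranged over 21.2 to 58.6 in mdx and 2.37 to 3.66 in WT (3.14 ± 0.24), with the same library highest. Adam8 (2.76 ± 0.30), Adam12 (2.12 ± 0.21) and the aggrecanase Adamts4 (2.27 ± 0.21) rose by more than 2 log2 units. Among 13 small leucine-rich proteoglycans Lum (1.28 ± 0.18), Bgn (0.86 ± 0.17) and Aspn (0.54 ± 0.18) rose (23.1%, near the 18.5% of all genes) and none fell. Aspn was not called on leaving out 1 of WT replicates 1 and 2 and mdx replicates 3 and 4. Of 29 integrins 11 rose and 2 fell (4 with the replicate block). The muscle laminin receptor chain Itga7 rose, at 147, 143, 168 and 142 in mdx, against 88.1, 90.7, 112, 97.1 and 101.9 in WT (0.62 ± 0.08, adjusted p = 5.1e-05) beside leukocyte chains such as Itgax (2.68 ± 0.21).

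Growth factor signalling moved at single points. Of 36 TGF-beta, BMP and activin genes 9 (25%) rose and 4 (11.1%) fell, against 18.5% and 16.1% of all genes (14 and 2 genes in plain CPM). Tgfb1, the main profibrotic ligand, had 15.4, 12.1, 16.1 and 18.4 normalized CPM in mdx, against 4.83, 6.63, 8.26, 6.36 and 7.09 in WT (log2 fold 1.17 ± 0.14 SE, adjusted p = 2.78e-05). Myostatin (Mstn), the muscle-made inhibitor of muscle growth, had 13.6, 14.2, 14.7 and 14.3 normalized CPM in the mdx libraries, against 80.5, 35.01, 39.8, 33.7 and 42.7 in the WT libraries (-1.59 ± 0.20, adjusted p = 4.83e-05), without overlap. Its antagonist follistatin (Fst) rose by 0.55 ± 0.13, though not without WT replicates 1, 2 and 3. Bmp6 fell at 6.15 to 12.3 in mdx and 16.3 to 23.8 in WT (-1.25 ± 0.18). Imprinted growth genes, which are active in embryonic and regenerating muscle, rose in 9 of 17 cases and fell in none. Peg3 had 363, 389.5, 376 and 305 in mdx, against 41.7, 141, 99.6, 101.1 and 92.7 in WT (2.00 ± 0.26, adjusted p = 5.59e-05). Mest, at 15.01 to 21.5 in mdx and 2.13 to 5.84 in WT, rose by 2.29 ± 0.21, Zim1, the neighbour of Peg3, by 1.78 ± 0.18, and the long noncoding H19 by 1.67 ± 0.19. Igf2, the growth factor gene next to H19, rose at a low level of 2.64 to 6.95 in mdx and 0.954 to 1.81 in WT (1.56 ± 0.22). The circulating carrier subunit gene Igfals fell (-1.28 ± 0.18).

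Division genes rose and so did inhibitors of division. Of 32 cell cycle and mitosis genes 26 rose, with a median of 1.25. Top2a, the topoisomerase of dividing cells, had 5.59, 8.58, 8.65 and 11.6 normalized CPM in the mdx libraries, against 0.483, 0.627, 1.87, 0.53 and 0.777 in the WT libraries (log2 fold 2.79 ± 0.24 SE, adjusted p = 2.12e-06). Kif11, Prc1, Cdk1 and Cenpe of the mitotic spindle and its control rose by 1.67 to 2.07. The exception was Pttg1, securin, which guards sister chromatids and had the lowest of all log2 folds, at 1.88, 1.47, 1.34 and 1.72 in mdx, against 51.9, 65.8, 47.98, 49.4 and 45.5 in WT (-4.64 ± 0.13, adjusted p = 4.9e-11). Cdk1, which drives entry into mitosis, ranged over 2.07 to 3.22 in mdx and 0.0797 to 0.605 in WT, so that the 2 genes ran in opposite directions. The 0.5 added before logs shortens the folds of genes at low levels, and 9930111J21Rik2, with 5 reads over the 4 mdx libraries and 86 to 287 in each WT library, had a log2 fold of -2.91 ± 0.20. Of 21 DNA replication genes 11 rose and 1 fell. Cdkn2a, which encodes inhibitors of cell cycle entry, had 67 to 91 reads in each mdx library and 5 reads over all 5 WT libraries, or normalized CPM of 1.47 to 1.92 in mdx and 0 to 0.0545 in WT (2.10 ± 0.15, adjusted p = 3.2e-07). Cdkn1a, the p53 target p21, had 32.2, 41.1, 50.98 and 43.5 in mdx, against 12.9, 13.9, 13.9, 8.56 and 10.2 in WT (1.78 ± 0.17, adjusted p = 3.39e-06). The list of p53 targets and growth arrest genes, which holds these 2 inhibitor genes, was mixed. Of its 27 genes 9 (33.3%, against 18.5% of all genes) rose and 5 (18.5%, near the 16.1% of all genes) fell. The rises were 16 in plain CPM and 5 without WT replicate 5. The falls took in Ccng1 (-0.63 ± 0.10), Phlda3 (-0.58 ± 0.10) and Aen (-0.68 ± 0.07).

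**Figure D4:**
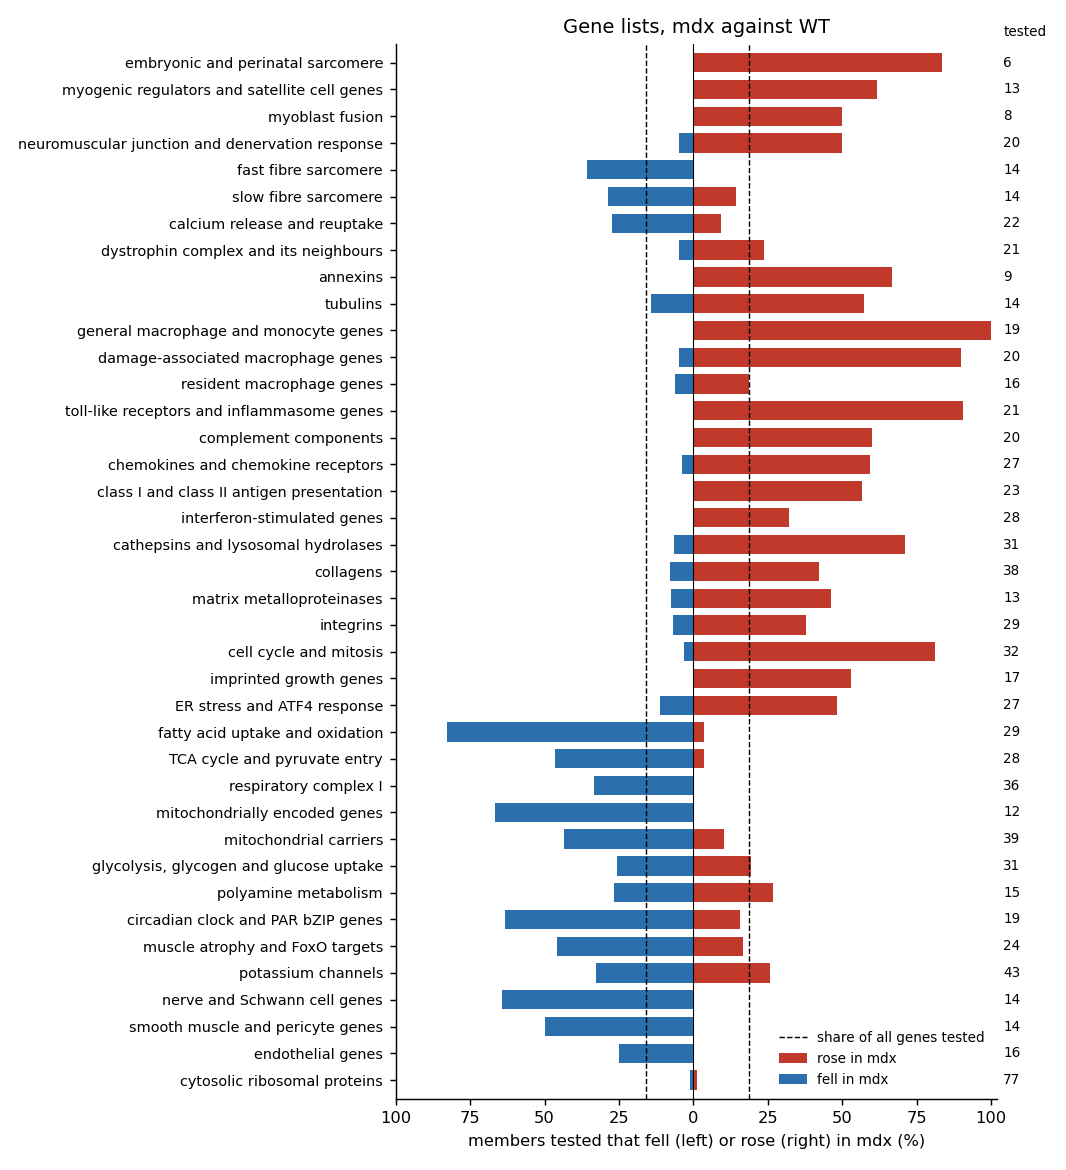
Percent of the tested members of 39 gene lists that fell (blue, left) or rose (red, right) in mdx, with the number tested at the right and dashed lines at the shares of all genes (16.1% fell, 18.5% rose). Immune, lysosomal, division and regeneration lists extend to the right, fatty acid, mitochondrial, clock, nerve and smooth muscle lists to the left, and potassium channels, polyamine and glycolysis genes extend both ways.

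Genes of fatty acid use fell. Of 29 genes of fatty acid uptake and oxidation 24 fell and 1 rose, with a median log2 fold of -0.46; in plain CPM 10 fell and 1 rose, with a median of -0.22. Lpl, which frees fatty acids from lipoproteins, had 252, 232, 252 and 345 normalized CPM in the mdx libraries, against 980.0, 499.9, 645, 647 and 569.9 in the WT libraries (log2 fold -1.28 ± 0.18 SE, adjusted p = 0.000122). The transporter Slc27a1 ranged over 49.7 to 75.5 in mdx and 94.5 to 135 in WT (-0.84 ± 0.13) and the binding protein Fabp3 over 102.1 to 147 in mdx and 188 to 432 in WT (-1.14 ± 0.22). The thioesterase Acot2 (-1.20 ± 0.17) and the isomerase Eci1 (-0.58 ± 0.07) fell too. The 1 riser was Ucp2, an uncoupling protein abundant in macrophages, at 32.7 to 61.1 in mdx and 14.9 to 26.9 in WT (1.07 ± 0.20). Ucp3 of muscle fell (-0.99 ± 0.25), though not without WT replicates 1, 2 and 3. In the TCA cycle and pyruvate entry list 13 of 28 fell (4 in plain CPM) and Pdk3 alone rose (2 rose in plain CPM). Of the other pyruvate dehydrogenase kinases, Pdk2 fell, at 374, 327, 400.4 and 346 in mdx, against 523, 531, 476, 535 and 494 in WT (-0.50 ± 0.07, adjusted p = 0.000146). Pdk4, at 116 to 542 in mdx and 350.2 to 1610.2 in WT, passed with the replicate block (adjusted p = 0.021) but not without it (adjusted p = 0.0682). Of the mitochondrial regulators, the oestrogen-related receptors Esrra (-0.40 ± 0.08), Esrrb (-1.48 ± 0.23) and Esrrg (-1.12 ± 0.25) and their partner Perm1 (-0.66 ± 0.11) fell. The coactivator Ppargc1a ranged over 42.4 to 60.3 in mdx and 30.9 to 68.7 in WT (-0.01 ± 0.19, adjusted p = 0.988). Esrra was not called in plain CPM.

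Calls in the respiratory chain depended on the fit. Of 36 complex I genes 12 (33.3%, against 16.1% of all genes) fell with a median of -0.33. With the replicate block 33 fell, with edgeR 6 and in plain CPM none. The count was 4 without mdx replicate 3 and 5 without mdx replicate 4, and 4 without WT replicates 1 and 2. For complexes II to IV 6 of 32 (18.8%, near the share of all genes) fell (20 with the block, 10 without WT replicate 5, 2 in plain CPM, where 2 also rose). Cox6a2, the heart and muscle form of a cytochrome oxidase subunit, fell under each of these settings, at 579, 639, 469.8 and 497 in mdx, against 964, 1239, 720.0, 814 and 736 in WT (-0.69 ± 0.15 SE, adjusted p = 0.00274; -0.46 in plain CPM, adjusted p = 0.0139). Mitochondrial ribosomal proteins fell in 16 of 77 cases, or 20.8%, against 16.1% of all genes. The falls were 34 with the block, 3 without mdx replicate 3 or 4 and 10 without WT replicate 2. In plain CPM none of these genes fell and 5 rose. Of 18 ATP synthase genes 2 (11.1%) fell and 1 rose (12 and none with the block, none and 1 in plain CPM). None of them fell without mdx replicate 3 or 4, and 4 fell without WT replicate 5. Transport genes of the inner membrane were mixed, with 4 of 39 risen (8 in plain CPM) and 17 fallen (7 in plain CPM). The calcium-regulated adenine nucleotide carrier Slc25a24 had 16.9, 21.9, 18.5 and 22.1 in mdx, against 4.37, 6.19, 8.13, 6.02 and 7.23 in WT (1.58 ± 0.14, adjusted p = 2.12e-06). The adenine nucleotide translocase of dividing cells Slc25a5 rose by 0.67 ± 0.08, while Slc25a34, at 6.46 to 8.61 in mdx and 18.1 to 33.2 in WT, fell (-1.56 ± 0.16). Macrophage sums moved with these falls (585 to 1088 in mdx and 94.3 to 307 in WT libraries), and the part of other cells in them was not tested.

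Sugar and phosphate energy genes moved both ways. Of 31 glycolysis and glycogen genes 6 (19.4%, near the 18.5% of all genes) rose and 8 (25.8%, against 16.1%) fell (12 and 3 in plain CPM). Eno1, the enolase of non-muscle cells, had 110.0, 126.4, 129.6 and 137 normalized CPM in the mdx libraries, against 72.4, 71.00, 68.2, 63.8 and 64.8 in the WT libraries (log2 fold 0.88 ± 0.07 SE, adjusted p = 1.26e-06). The muscle enolase Eno3 was at 4871 ± 351 in mdx and 5586 ± 573 in WT (-0.19 ± 0.12, adjusted p = 0.219). Pfkp rose (0.74 ± 0.09) and muscle Pfkm did not pass (-0.23 ± 0.10, adjusted p = 0.103). Hexokinase Hk1 rose (0.66 ± 0.12) and Hk2 fell (-0.53 ± 0.14, adjusted p = 0.00823), though not in plain CPM (adjusted p = 0.123). Glycogen phosphorylase Pygm fell (-0.61 ± 0.12), as did Ldhb, the lactate dehydrogenase of oxidative fibres, at 56.00, 59.4, 48.9 and 71.8 in mdx, against 333, 147, 127, 119.8 and 113 in WT (-1.38 ± 0.27, adjusted p = 0.00112). Creatine and nucleotide enzymes also moved both ways, where 9 of 23 rose and 7 fell (4 without mdx replicate 3 or 4, 3 in plain CPM). The muscle forms Ampd1 (-0.58 ± 0.09) and Adssl1 (-0.56 ± 0.07) and creatine kinase Ckm (-0.55 ± 0.15) fell. Ampd3 (0.87 ± 0.16), Ckb (0.55 ± 0.13) and the creatine synthesis enzymes Gamt, at 15.8 to 21.6 in mdx and 6.25 to 10.96 in WT (1.05 ± 0.15), and Gatm (0.95 ± 0.19) rose. Ckm was not called without WT replicates 1, 2 and 3. Of 77 ribosomal proteins 1 rose and 1 fell. Rpl3 had 71.6, 95.4, 83.1 and 91.3 in mdx, against 42.1, 62.8, 52.1, 46.5 and 54.8 in WT (0.72 ± 0.11, adjusted p = 0.000162). Its muscle paralog Rpl3l had 394, 356, 389 and 351 in mdx, against 499, 572, 423, 481 and 410.0 in WT (-0.35 ± 0.10, adjusted p = 0.0156). Rpl3l was not called in plain CPM (-0.11, adjusted p = 0.274) or without mdx replicate 4 or WT replicates 1 and 2. A total of 20 ribosomal protein genes fell with the replicate block.

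Polyamines, small cations made from ornithine and S-adenosylmethionine, had 4 risen and 4 fallen genes of 15 tested (26.7% each, against 18.5% and 16.1% of all genes). Amd1, whose product supplies the aminopropyl groups for spermidine and spermine, had 238, 167, 119 and 151 normalized CPM in the mdx libraries, against 1286, 589.8, 467, 567 and 444 in the WT libraries (log2 fold -1.91 ± 0.28 SE, adjusted p = 0.000128). Smox, spermine oxidase, had 193, 106, 129 and 122 in mdx, against 579, 353, 268, 307 and 273 in WT (-1.34 ± 0.21, adjusted p = 0.000206). Spermine synthase Sms fell by less (-0.58 ± 0.11). The groups did not overlap in these 3 genes. Amd2 (-1.54 ± 0.25) is a near copy of Amd1, so its reads may be shared. Rises were seen in Azin1, at 72.3 to 112 in mdx and 42.97 to 62.00 in WT (0.73 ± 0.13), Azin2 (0.52 ± 0.11), which keep ornithine decarboxylase active, and the acetyltransferase Sat1 (0.66 ± 0.14), which marks polyamines for export. Ornithine decarboxylase itself (Odc1) ranged over 72.8 to 129 in mdx and 86.5 to 201 in WT (-0.22 ± 0.22, adjusted p = 0.472). The count of rises was 8 in plain CPM.

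Circadian clock genes changed in 15 of 19 cases, 12 fallen and 3 risen, with a median of -0.48; in plain CPM 9 fell and 3 rose. The clock is a loop in which the activators Clock, Npas2 and Arntl (Bmal1) drive their own repressors of the Per, Cry and Rev-erb families and output factors such as Dbp, Tef and Hlf. Npas2 had 3.19, 3.25, 2.496 and 2.63 normalized CPM in the mdx libraries, against 0.628, 0.518, 0.658, 0.583 and 0.717 in the WT libraries (log2 fold 1.59 ± 0.13 SE, adjusted p = 1.48e-06), and Clock rose by 0.45 ± 0.11. Arntl rose by 0.32 ± 0.10 (adjusted p = 0.0302). It was not called with the replicate block (adjusted p = 0.0958) or on leaving out 1 of WT replicates 3 and 5 and mdx replicates 1 and 2. Among repressors, Per2 had 16.98, 12.7, 16.2 and 17.04 in mdx, against 30.4, 32.3, 35.6, 36.9 and 37.2 in WT (-1.11 ± 0.15, adjusted p = 8.56e-05). Cry2 had 33.6, 31.2, 38.2 and 31.1 in mdx, against 64.5, 52.5, 73.1, 57.8 and 64.8 in WT (-0.88 ± 0.11, adjusted p = 3.49e-05). Per3 (-0.66 ± 0.10), Cry1 (-0.48 ± 0.09), Ciart (-1.09 ± 0.14), Bhlhe41 (-0.75 ± 0.11) and Nr1d2 (-0.34 ± 0.07) fell as well, of which Cry1 and Nr1d2 were not called in plain CPM. Per1, at 73.2 to 124 in mdx and 103.7 to 139 in WT, and the Rev-erb gene Nr1d1, at 103 to 135 in mdx and 133 to 144 in WT, did not pass (adjusted p = 0.118 and 0.0705). Of the output factors, Hlf had 4.56, 3.12, 3.22 and 4.93 in mdx, against 23.4, 20.3, 27.8, 23.4 and 29.3 in WT (-2.52 ± 0.16, adjusted p = 1.92e-07). Dbp ranged over 72.4 to 93.4 in mdx and 136 to 183 in WT (-0.93 ± 0.12) and Tef over 268 to 323 in mdx and 389 to 412 in WT (-0.43 ± 0.07), and both fell. The hour at which muscles were taken is not known here and cannot be told apart from the genotype if it differed between the groups.

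**Figure D5:**
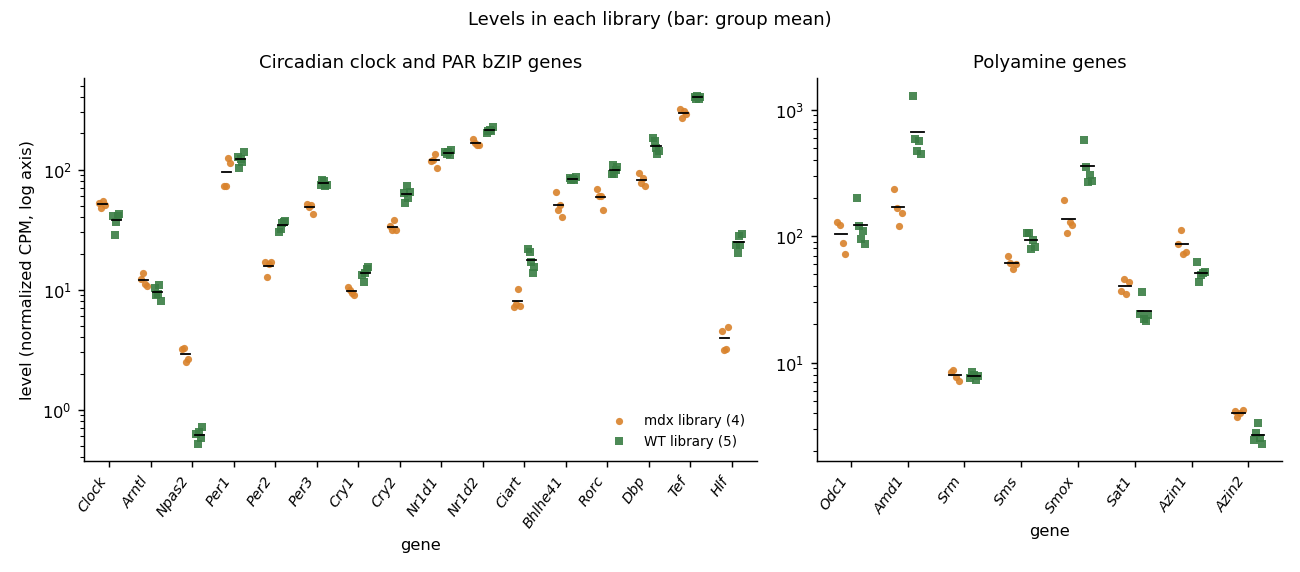
Normalized CPM (log axis) of each library, mdx left and WT right of each gene name, with bars for group means. Left, the clock activators Clock and Npas2 lay higher in every mdx library than in any WT library, and Per2, Per3, Cry2, Dbp, Tef and Hlf lay lower; right, Amd1, Sms and Smox of the polyamine path were lower in every mdx library, and Azin1 and Azin2 were higher.

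Clock and its partner bind the E-box CACGTG, and the promoters of Ciart and Tef are shown as those of a fallen repressor and a fallen output factor that hold it. Capitals mark CACGTG, the same on both strands, in the RefSeq sequence (GRCm38.p6) of the 250 bases before the start:
Ciart (chr3:95882229-95882478, minus strand): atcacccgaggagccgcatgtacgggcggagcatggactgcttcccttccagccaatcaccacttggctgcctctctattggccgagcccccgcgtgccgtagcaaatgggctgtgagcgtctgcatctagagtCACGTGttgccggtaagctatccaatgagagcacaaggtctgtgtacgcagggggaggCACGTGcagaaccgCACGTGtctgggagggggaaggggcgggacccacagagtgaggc
Tef (chr15:81802423-81802672, plus strand): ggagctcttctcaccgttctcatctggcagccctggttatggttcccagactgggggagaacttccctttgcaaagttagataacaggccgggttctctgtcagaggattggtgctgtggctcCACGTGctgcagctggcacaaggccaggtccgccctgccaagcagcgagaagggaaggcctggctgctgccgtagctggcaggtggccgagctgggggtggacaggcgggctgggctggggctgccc
The motif is in 6.02% of the 32851 windows and at least 2 times in 0.429%. It is in the windows of 5 of 16 clock genes, Bhlhe41, Ciart, Cry1, Per1 and Tef. Of these Per1 did not pass the test. Windows without the letters say nothing of binding elsewhere. The other clock genes that fell, Hlf, Dbp and Per2 among them, have no match in the windows used.

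More genes of muscle wasting fell than rose. Of 24 atrophy and FoxO target genes 11 fell (7 in plain CPM) and 4 rose. The ubiquitin ligase Fbxo32, or atrogin 1, had 197, 182, 214 and 201 normalized CPM in the mdx libraries, against 474, 349, 419, 308 and 341 in the WT libraries (log2 fold -0.91 ± 0.11 SE, adjusted p = 3.14e-05), without overlap. Fbxo31 (-0.79 ± 0.07), Fbxo40 (-0.60 ± 0.09) and the factor Foxo4 (-0.51 ± 0.08) fell as well. Trim63, or MuRF1, ranged over 125 to 178 in mdx and 172 to 235 in WT (-0.45 ± 0.11, adjusted p = 0.00652; not called in plain CPM, adjusted p = 0.14). The metallothioneins, metal-binding stress proteins that also count among atrophy genes, went up. Mt2 had 45.5, 199, 42.1 and 45.2 in mdx, against 5.02, 6.79, 6.23, 5.96 and 7.55 in WT (3.27 ± 0.35, adjusted p = 1.13e-05). Mt1 had 31.3, 104.4, 30.02 and 33.6 in mdx, against 11.8, 14.6, 8.29, 9.62 and 11.6 in WT (1.91 ± 0.29, adjusted p = 0.000204). Both peaked in mdx replicate 2, and the other 3 mdx libraries also lay above every WT library. The ER stress and ATF4 list held 13 rises and 3 falls of 27 genes. The rises took in the serine and asparagine synthesis genes Psat1 (1.34 ± 0.11) and Asns (0.91 ± 0.13) and Atf3 (1.37 ± 0.17). The ER-associated degradation gene Herpud1 was among the falls, at 88.99 to 100.3 in mdx and 139.8 to 154 in WT (-0.61 ± 0.06).

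More sterol genes rose than fell, and most did not pass the threshold. Of 25 cholesterol genes 9 (36%, against 18.5% of all genes) rose and 1 (4%, against 16.1%) fell. Without WT replicates 1, 2 and 3 the rises were 4. Soat1, which esterifies cholesterol for storage, had 15.6, 16.95, 17.2 and 20.01 normalized CPM in the mdx libraries, against 3.21, 4.17, 6.39, 3.92 and 5.74 in the WT libraries (log2 fold 1.82 ± 0.15 SE, adjusted p = 1.52e-06). The exporter Abcg1 rose by 1.64 ± 0.22. Fdft1, squalene synthase, which commits the pathway to sterols, had 46.96, 42.2, 40.2 and 37.1 in mdx, against 76.5, 88.6, 87.4, 76.1 and 72.7 in WT (-0.94 ± 0.09, adjusted p = 3.06e-06). The regulator Srebf2 rose (0.50 ± 0.10). Of the antioxidant and NRF2 genes 10 of 31 rose and 11 fell (13 and 1 in plain CPM). The rises took in the NADPH oxidase subunits of phagocytes Cybb (2.11 ± 0.34), Ncf1 (1.61 ± 0.23), Ncf4 (1.22 ± 0.13) and Cyba (1.15 ± 0.17), with the iron store Ftl1 (0.85 ± 0.10) and haem oxygenase Hmox1 (0.79 ± 0.17).

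Channel genes moved in both directions. Of 43 potassium channel genes 11 (25.6%) rose and 14 (32.6%) fell, against 18.5% and 16.1% of all genes. Kcnn3, a calcium-activated channel known from denervated muscle, had 26.3, 30.9, 39.04 and 26.5 normalized CPM in the mdx libraries, against 4.93, 4.17, 9.26, 7.26 and 8.82 in the WT libraries (log2 fold 2.12 ± 0.20 SE, adjusted p = 3.62e-06). The beta subunit Kcne1l rose at 2.40 to 4.30 in mdx and 0.0789 to 0.531 in WT (2.29 ± 0.18). The inward rectifier Kcnj2 (-0.81 ± 0.12) and the large-conductance channel Kcnma1 (-1.27 ± 0.22) fell. Kcnma1 was at 20.4, 13.5, 21.1 and 18.9 in mdx, against 82.5, 30.1, 42.6, 40.97 and 41.3 in WT. Scn4a, the sodium channel of adult muscle, ranged over 331 to 486 in mdx and 355 to 704 in WT (-0.52 ± 0.17, adjusted p = 0.0309). Scn4a was not called in plain CPM (adjusted p = 0.229), by edgeR, or without any 1 of WT replicates 1, 3, 4 and 5 and mdx replicates 1, 2 and 4. The chloride channel Clcn1 of the fibre surface fell (-0.41 ± 0.07), though not in plain CPM. The stretch- and heat-gated Trpv2 ranged over 4.69 to 5.44 in mdx and 1.55 to 2.73 in WT (1.05 ± 0.13, adjusted p = 4.1e-05).

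In the lists of nerve, smooth muscle and red blood cell genes more members fell than rose. Of 14 nerve and Schwann cell genes 9 fell (7 in plain CPM) and none rose. Their summed level was 126.3 to 156 in mdx and 186 to 455 in WT libraries. The lineage factor Sox10 had 1.55, 1.60, 1.23 and 1.40 normalized CPM in the mdx libraries, against 3.79, 3.57, 2.79, 2.54 and 3.84 in the WT libraries (log2 fold -0.96 ± 0.12 SE, adjusted p = 5.59e-05). Prx (-1.25 ± 0.20) and Cldn19 (-1.06 ± 0.17) fell as well. WT replicates 1 and 2 were the highest in Prx, and Sox10 was lower in every mdx library than in any WT library. Of 14 smooth muscle and pericyte genes 7 fell (4 in plain CPM, where 2 rose). Myh11, the smooth muscle myosin, had 49.8, 55.4, 57.3 and 71.1 in mdx, against 89.1, 94.04, 96.3, 114 and 109 in WT (-0.78 ± 0.10, adjusted p = 5.96e-05), and Tagln fell by less (-0.65 ± 0.15). Of 16 endothelial genes 4 (25%, against 16.1% of all genes) fell and none rose, with none called in plain CPM. The falls were 9 without WT replicates 1 and 2, 2 without WT replicate 4, WT replicate 5 or mdx replicate 1, and 1 without mdx replicate 2 or 3. Of 16 fibro-adipogenic progenitor genes 5 (31.25%, against 18.5% of all genes) rose and none fell. The rises were 3 on leaving out 1 of WT replicates 1 and 4 and mdx replicates 2, 3 and 4. In the adipocyte list 1 of 13 rose and 1 fell. Haemoglobin and other red blood cell genes fell in 5 of 6 cases (3 in plain CPM and without mdx replicate 2 or 3, none without WT replicates 1, 2 and 3), with the alpha globin gene Hba-a1 at 8.84 to 17.5 in mdx and 18.96 to 45.2 in WT.

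Several housekeeping lists turned with the scaling. Of 37 proteasome genes 1 rose and 3 fell, 8 fell with the replicate block, and 10 rose and none fell in plain CPM. Of 73 chaperone genes 7 rose and 15 fell, and 29 rose and 2 fell in plain CPM. The ER chaperone Hspa5 rose in both (0.48 ± 0.09 SE, and 0.71 in plain CPM), and Hspa1l, an Hsp70 family member, fell in both (-0.95 ± 0.12 and -0.72). Of 32 ribosome biogenesis factors 9 (28.1%) fell and none rose, with 5 falls without mdx replicate 4. In plain CPM 4 of these factors rose and 1, Rrp9, fell (-0.27, adjusted p = 0.0107). Of 12 mitochondrially encoded genes 8 fell, against 3 in plain CPM, 5 without WT replicate 2 and 4 without mdx replicate 3 or 4. The proteasome, chaperone and ribosome biogenesis lists had more falls than rises in normalized CPM and more rises than falls in plain CPM.

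The authors' deposited table of WT and mdx lists 1073 genes, 853 higher and 220 lower in mdx, and keeps to adjusted p-values below 0.01 and to changes of more than 1 log2 unit. Of these, 1068 (99.5%) were called here in the same direction. At the same limits 800 genes passed here, and 783 of them (97.9%) are in the authors' deposited table.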

How the data were processed

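RNA from tibialis anterior was sequenced from stranded poly(A) libraries, per the labels' protocols. The 5 WT and 4 mdx libraries were grouped by their titles. Demultiplexing with bcl2fastq 2.17, alignment with STAR to mm10 and edgeR are named in the submitters' processing notes; no version is given for the others, and the counter, its strand setting and the annotation are not stated. The authors deposited read counts per library, with the fraction of unique and multiple hits, and a signal per gene, normalized CPM, that is, reads scaled by an effective library size. The authors' deposited table of WT against mdx holds their log2 fold change and log2 CPM, p-value and adjusted p-value, −log10 of the adjusted p-value and a score, the F statistic.

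Here 13831 of 13846 listed genes, those with at least 0.5 normalized CPM in 4 libraries, were tested with limma 3.58.1 (R 4.3.3) on log2(normalized CPM + 0.5), with all 13 libraries in the fit. Normalized CPM times effective library size gave whole reads within 0.001 reads for 100.0% of WT and mdx values, and edgeR 4.0.16 and DESeq2 1.42.0 were run on these reads. Tested on simulated data of 13391 genes for this comparison, limma recovered 50.7% of genes changed 1.5-fold, 89.6% of those changed 2-fold and 98.5% of those changed 4-fold, with 6% of calls false. The simulation changed 67, 67 and 65 genes at these folds, drawn above a minimum of reads. All other genes had the WT mean in both groups, and only WT and mdx were fitted. These shares need not hold for the real fit, which had 13 libraries and called 34.6% of genes. Libraries of 1 genotype differed by more than sampling noise, with chi-square values per degree of freedom of 28.0 to 180. The number of libraries limits precision more than the reads do.

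Same-numbered WT and mdx libraries deviated together from their group means (r of 0.336, 0.446, 0.326 and 0.183). The replicate number was therefore tried as a pairing, from these same data and not from the labels. The same number was not always the best match. For mdx replicate 3 the correlation was higher with WT replicate 5 (0.363). For mdx replicate 4 it was higher with WT replicates 5 (0.477) and 3 (0.300). The mdx replicates 1 and 2 correlated positively with WT replicates 1 and 2 and negatively with WT replicates 3, 4 and 5. For mdx replicates 3 and 4 the signs were reversed. The second principal component, with 16.1% of the variance, was negative in replicates 1 and 2 of both genotypes and positive in the others. No fit took this split as a block, and its source was not tested. "Replicate block" in the text is the fit with the replicate number and only WT and mdx. WT replicate 5 has no mdx library of its number, so the block takes it out of the contrast. The log2 folds under the block equal those without WT replicate 5 (Dmd -1.97 and Utrn 0.24 in both). Plain CPM are scaled by the reads on listed genes alone.

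The gene lists and the genes named were chosen with earlier results of these data known. Named genes were dystrophin, utrophin and sarcospan, the 12 largest rises and falls without overlap at 10 or more normalized CPM, the 8 largest gains and losses in normalized CPM among called genes without overlap, up to 6 members of each list with the smallest p, genes at 3 reads or fewer in every library of 1 group, and the 5 listed genes on each side of Dmd. Further list members and genes of the myosin locus were chosen after their values were seen. Coordinates are from GENCODE M21 on mm10, matched by symbol for 98.8% of genes. Samples with the transgene were not compared, and a few of the genes that the rule names are not reported here.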

Additional observations from a re-analysis of the deposited data

Results flagged for a closer look

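Within each group of 4 or 5 libraries, 114 groups of 57 genes were searched for a library whose gap to its nearest neighbour was above Dixon's 95% critical value as a share of the group's range. Chance gives about 1 such group in 20, and 12 were found, 11 of them in WT and 1 in mdx. WT replicate 3 stood high for genes of new fibres, Myh3 (39.2 normalized CPM, share 0.75), Myh8 (10.8, share 0.744) and Mymk (3.81, share 0.882), and low for Tmem47 (8.18, share 0.796). WT replicate 2 stood low for Dmd (124 normalized CPM, share 0.935), for the signalling gene Tab3 (7.80, share 0.778) and the glycerol kinase gene Gk (2.34, share 0.761) beside it, and for Nudc-ps1 (0 reads, share 0.817). WT replicate 1 stood high for the slow light chain Myl3 (753, share 0.84) and for Bdh1 (92.5, share 0.837). WT replicate 5 stood high for mt-Co3 (117, share 0.745), whose reads may be shared with nuclear copies. The call of mt-Co3 was lost without WT replicate 2 or any 1 of the mdx libraries. It was also lost in plain CPM and when the transgenic libraries were left out of the fit. In mdx, replicate 2 stood high for Mt2 (199 normalized CPM, share 0.95). No explanation was tested.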

How the results depend on the processing

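Of the named genes 386 passed the threshold, and 294 of them did so in every alternative run. Rises numbered 1683 with a filter at 5 normalized CPM, where fewer genes were tested, and 5153 in plain CPM, and falls numbered 736 in plain CPM, against 2559 and 2223. Without 1 library the rises ranged over 2117 to 2690 and the falls over 1663 to 2567, and the genes without overlap over 3874 to 4804. Chosen after seeing the data, leaving out WT replicates 1 and 2, or 1, 2 and 3, left 5709 and 6663 genes without overlap, in place of 3690, with fewer libraries to overlap. In the replicate block fit with only WT and mdx, where WT replicate 5 drops out of the contrast, 2739 genes rose and 2568 fell. Utrn had a log2 fold of 0.24 there, past the threshold. The block changed the call of 9 named genes. The sign turned in plain CPM for the proteasome genes Psmd3 (0.015), Psmd2 (0.0043) and Psmc2 (0.037), none past the threshold there. On recovered reads edgeR called 2285 rises and 1715 falls, and DESeq2 2474 and 2230. Of 136 list counts, plain CPM moved 61 by more than 1.5 times, the block 26, edgeR 14 and DESeq2 13. Depth was 41.74 to 53.87 M reads on listed genes, and genes near 3 reads (0.0568 to 0.0818 normalized CPM) could not be told from 0.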

Other observations

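A few genes had almost no reads in 1 genotype. F7, which encodes coagulation factor VII, had 71 to 136 reads in each mdx library and 10 over the 5 WT libraries, or normalized CPM of 1.55 to 2.58 in mdx and 0.0265 to 0.0725 in WT (log2 fold 2.11 ± 0.14 SE, limma adjusted p = 1.96e-07). The pseudogene Nudc-ps1 had 85 to 148 reads in each mdx library and 9 over the WT libraries, and the predicted gene Gm14292 had 52 to 85 reads in each mdx library and 5 over the WT libraries. The reverse was seen for 9930111J21Rik2, with 5 reads over the 4 mdx libraries and 86 to 287 in each WT library. The reads of pseudogenes and predicted genes may be shared with near copies.

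By chromosome, the X had 446 genes tested, of which 113 (25.3%) rose and 35 (7.85%) fell in mdx, against 18.5% and 16.1% of all genes. The 5 Y genes tested did not pass the threshold, with Kdm5d, the histone demethylase gene, at 21.8 ± 1.17 in mdx and 20.6 ± 1.97 in WT normalized CPM (SD, n = 4 and 5). These counts were looked at after the data were seen and no test was made of them.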
